A study of Mus musculus with 16 samples.

Results

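The genes described here are the odorant receptors that the mouse Clariom S array places on chromosome 19. They were taken as every probe set whose identifier names that chromosome and whose symbol is Olfr followed by a number. Symbols with the pseudogene ending -ps were left out. The rule gave 61 genes with 1 probe set each, of 19572 probe sets that name 1 gene and of 1080 odorant receptors among them. The rule uses no measured value. All 61 were found in RefSeq's mouse gene table by their Entrez identifiers, and in its gene order they run from Olfr1417, the first, to Olfr1505, the last. The older MOR names listed there as synonyms, which number receptors by sequence family, put 30 of them in family MOR202, 8 in MOR266, 6 in MOR214, 6 in MOR239, 4 in MOR212, 3 in MOR211, 3 in MOR215 and 1 in MOR127. The MOR names of Olfr1463, Olfr1474, Olfr1490, Olfr1500 and Olfr1505 end in the letter P. The rule kept these genes, and whether any of them is a pseudogene was not checked.

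Odorant receptors are G protein-coupled receptors, and each mature olfactory sensory neuron transcribes a single allele of a single receptor gene. Receptor genes lie in clusters of related copies, and a neuron's choice among them is linked to binding sites for homeodomain factors such as Lhx2 and for Ebf factors near the genes. The amount of a receptor's RNA in a sorted fraction depends on how many neurons chose that receptor and on how much RNA each of them holds; in bulk samples fewer cells of a type and less RNA per cell cannot be told apart. S100a5 is a gene that sensory neurons transcribe when they are active, so a reporter placed under it marks neurons that have recently been stimulated. Among the receptors of this cluster, Olfr235 and Olfr1440 are known to respond to musk odorants.

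The animals were 24 S100a5-tauGFP mice of both sexes, aged 7 to 12 weeks, and all groups carried this reporter; RNA came from sorted cells of their olfactory mucosa. The mice spent 40 h in chambers supplied with clean air at 3.1 L/min, and from 26 h on they received pulses of 10 s every 20 min of either 2-octanone, a ketone odorant, or filtered air as vehicle. Mice were pooled in sets of 3, with 4 pools per exposure, and each pool was sorted into GFP+ and GFP− cells, which gave 4 groups of 4 arrays: GFP+ after 2-octanone, GFP− after 2-octanone, GFP+ after vehicle and GFP− after vehicle. Both fractions of a pool therefore came from the same 3 mice, and the spread between arrays of a group is a spread between pools, not between single animals. The sort reads the reporter's protein, whereas the arrays read RNA.

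The deposited signals are on a log2 scale, with array medians of 7.64 to 8.01 and background probe sets averaging 5.40 to 5.61. Omp, the marker of mature olfactory sensory neurons, read 17.76 to 18.45 on all 16 arrays. S100a5 read 16.47 to 16.98 in the GFP+ cells of replicates 1 to 3 of both exposures but 13.92 and 13.22 in those of replicate 4. In GFP− cells it read 15.45 to 15.81 in replicates 1 to 3, and 13.55 and 13.11 in replicate 4. Its sort difference was 0.83 (SE 0.60, limma adjusted p = 0.304) in a fit that did not pair the fractions of a pool. Within every pool S100a5 was higher in GFP+ than in GFP− cells. Of the 15 listed genes of mature sensory neurons 9 were higher in GFP+ cells, against 16.7% of all probe sets, and none was lower; of 7 genes of immature neurons 5 were lower, against 14.0%. All 10 neutrophil genes were lower in GFP+ cells, with a median difference of −7.04, and their mean signal was 14.39 to 15.99 in GFP− cells; the part of these other cells in the receptor values was not tested.

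RefSeq's table of promoter windows (build GRCm38.p6) held 58 of the 61 genes, each with 250 bases before the annotated start. In 50 of the 58 the annotated start is an ATG, so that the window lies before the coding sequence and need not be at a transcription start. The windows below are from the other 8 and show a pair of members that were far lower in GFP+ cells, Olfr1434 and Olfr1437 of family MOR214, and a pair that were higher, Olfr1443 of MOR202 and Olfr1419 of MOR266. They are written 5′ to 3′ on the gene's strand, and capitals mark TAATTA or TAATGA on either strand (TCATTA is the reverse complement of TAATGA), core letters that homeodomain factors such as Lhx2 bind.
Olfr1434, chr19:12279604-12279853, plus strand: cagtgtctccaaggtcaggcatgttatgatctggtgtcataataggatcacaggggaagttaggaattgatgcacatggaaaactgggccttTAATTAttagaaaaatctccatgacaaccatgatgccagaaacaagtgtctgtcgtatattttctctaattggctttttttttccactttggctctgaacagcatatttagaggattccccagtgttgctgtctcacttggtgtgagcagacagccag
Olfr1437, chr19:12325067-12325316, minus strand: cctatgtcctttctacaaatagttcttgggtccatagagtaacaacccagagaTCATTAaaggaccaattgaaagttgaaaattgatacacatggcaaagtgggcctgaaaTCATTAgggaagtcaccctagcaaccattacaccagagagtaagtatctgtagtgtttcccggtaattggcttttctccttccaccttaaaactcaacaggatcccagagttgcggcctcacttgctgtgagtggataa
Olfr1443, chr19:12677916-12678165, plus strand: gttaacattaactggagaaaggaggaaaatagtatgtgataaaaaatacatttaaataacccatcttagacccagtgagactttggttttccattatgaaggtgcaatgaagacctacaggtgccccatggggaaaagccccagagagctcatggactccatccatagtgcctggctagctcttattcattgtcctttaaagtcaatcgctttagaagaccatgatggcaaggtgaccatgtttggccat
Olfr1419, chr19:11871306-11871555, minus strand: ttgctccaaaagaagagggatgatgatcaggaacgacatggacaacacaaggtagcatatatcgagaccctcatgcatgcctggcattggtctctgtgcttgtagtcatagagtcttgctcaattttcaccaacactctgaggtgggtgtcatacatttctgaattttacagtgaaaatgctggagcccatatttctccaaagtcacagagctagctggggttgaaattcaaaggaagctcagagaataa
The window of Olfr1434 holds 1 such match and that of Olfr1437 holds 2, while those of Olfr1443 and Olfr1419 hold none. The windows of Olfr1434 and Olfr1437 were 60.6% identical in a global alignment, and the other pairings of the 4 windows were 41.8% to 43.5% identical. Over the cluster, 24 of 58 windows (41.4%) held TAATTA or TAATGA, against 37.9% of the 944 windows of all odorant receptors and 12.5% of all 32851 windows. TAATGA was in 10 of 23 windows (43.5%) of members lower in GFP+ cells and in 5 of 24 (20.8%) of members higher there, whereas TAATTA was in 5 of 23 and 6 of 24. The 4 windows printed were picked to show the letters and do not stand for all members of either direction. The letters CCCNNGGG, part of the site of Ebf factors, were in 1 of 58 windows (1.72%), against 2.75% for all odorant receptors and 11.8% of all windows, and TATAAA was in 27.6%, against 39.4% and 12.4%. These are matches of letters in a fixed window, searched on both strands, and no test was made of them.

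Most receptors of the cluster differed between reporter-positive and reporter-negative cells, in either direction. Over both exposures 26 of the 61 receptors were higher in GFP+ than in GFP− cells at a limma adjusted p under 0.05, against 16.7% of all probe sets tested, and 24 were lower, against 14.0%. The remaining 11 were not called. After centring each array on its median 28 members were higher and 23 lower (45.9% and 37.7%), but then 66.9% of all probe sets were higher and 10.5% lower, so the members' share of higher calls stands above or below that of all probe sets depending on the scaling. Without that centring the 26 higher and 24 lower members are 42.6% and 39.3% of the cluster, beside 44.8% and 25.9% among all 1080 odorant receptors. The receptor clusters of chromosomes 2, 7 and 9 then had 28.4%, 17.0% and 22.5% lower. These shares were not compared by a test. The sort difference, meaning the mean log2 signal of GFP+ minus that of GFP− cells, ran from −5.26 to 3.28 over the members, with a median of 0.03 and quartiles of −2.42 and 1.41. Its median size without regard to sign was 1.93, beside 1.23 for all odorant receptors and 0.23 for all probe sets tested.

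Differences beyond 4-fold were frequent on both sides. For 10 members the sort difference was above 2, against 0.782% of all probe sets, and for 18 it was below −2, against 3.60%; among all odorant receptors the shares were 13.8% and 13.5%, and for the cluster 16.4% and 29.5%. After vehicle alone 23 members were higher (7.54% of all probe sets) and 18 lower (11.0%), and after 2-octanone alone 19 were higher (5.29%) and 19 lower (9.80%). Among all odorant receptors 35.6% were higher and 20.5% lower after vehicle, and 33.1% and 19.4% after 2-octanone. For the cluster the shares were 37.7% and 29.5% after vehicle, and 31.1% in either direction after 2-octanone. The difference was called in both exposures for 37 members, and 56 of 61 had the same sign in both, which rest on separate pools. These counts were not made over all probe sets, so they describe the cluster only and show nothing particular to it. Within pools, 22 members were higher in GFP+ cells in all 8 pools, against 13.5% of all probe sets, and 22 were lower in all 8, against 12.2%. Each count is 36.1% of the cluster, beside 38.3% higher and 21.9% lower among all odorant receptors. Of the other 17 members, 6 were nevertheless called over both exposures: Olfr1417, Olfr1423, Olfr1436, Olfr1462, Olfr1465 and Olfr1472. With the pool as a block Olfr1472 was not called (limma adjusted p = 0.0607). Across the 61 members the within-pool differences of any 2 pools correlated with r = 0.863 to 0.965 over 28 pairs of pools; members that share probes or regulation are not independent points.

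**Figure D1:**
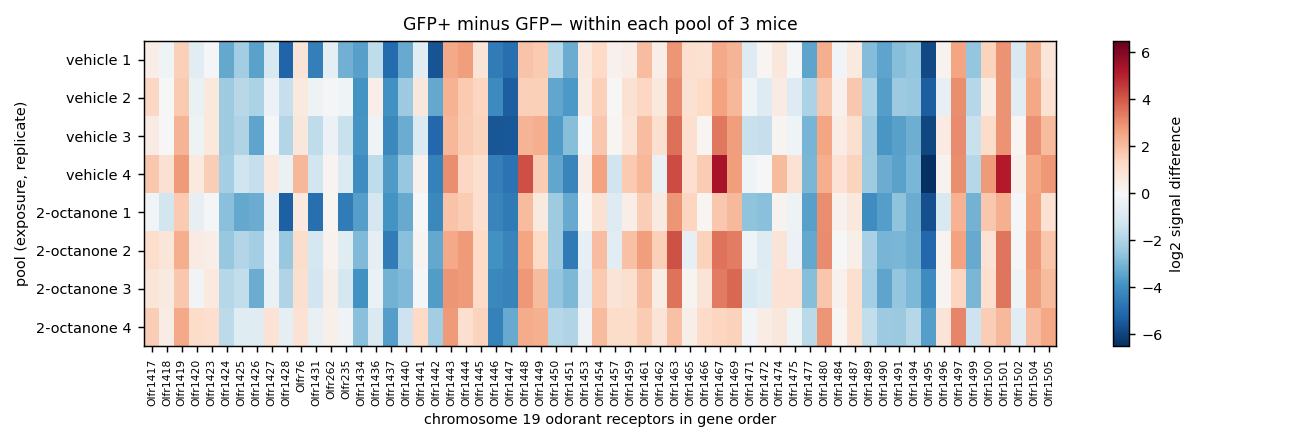
Within-pool difference (GFP+ minus GFP−, log2 signal, colour) of the 61 receptors in gene order (x axis) for each of the 8 pools (y axis), red where the receptor was higher in GFP+ cells and blue where it was lower. Most columns keep one colour in all 8 pools, whereas Olfr1428, Olfr1431 and Olfr235 are darkest in the replicate 1 pools of both exposures.

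Of the receptors higher in GFP+ cells, Olfr1463 of MOR202 had the largest difference. In GFP+ cells it read 13.85, 13.23, 13.03 and 11.99 in replicates 1 to 4 after 2-octanone and 13.12, 13.13, 13.37 and 12.22 after vehicle. In GFP− cells it read 11.01, 9.07, 9.49 and 10.10 with 2-octanone and 10.27, 10.03, 9.78 and 7.97 with vehicle. No GFP− array reached the lowest GFP+ array, and the sort difference was 3.28 (SE 0.36, 9.70-fold, limma adjusted p = 1.86e-06). Olfr1501 of MOR212 followed, with a median of 11.67 (9.99 to 12.13) over the 8 GFP+ arrays and 8.46 (4.84 to 9.83) over the 8 GFP− arrays. Its difference was 3.16 (SE 0.56, 8.92-fold, limma adjusted p = 0.000329), and the ranges lay close together without overlap. Olfr1467 of MOR202 read 11.73 to 13.25 in GFP+ and 6.92 to 10.52 in GFP− cells, a difference of 2.99 (SE 0.41). Its lowest GFP− value, in the vehicle replicate 4 pool, lay far under the other 7.

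The next in size of the 10 members above 2 were Olfr1497 at 2.64, Olfr1469 at 2.56, Olfr1504 at 2.55, Olfr1443 at 2.48 and Olfr1480 at 2.47, followed by Olfr1448 at 2.46 and Olfr1419 at 2.07. For the first 5 of these the limma adjusted p ran from 5.01e-08 for Olfr1443 to 0.000285 for Olfr1469. Olfr1443 had the smallest error of these (SE 0.20), reading 11.08 to 11.78 in GFP+ and 8.06 to 9.53 in GFP− cells. For Olfr1469 the fractions overlapped between pools, at 7.48 to 9.99 and 4.78 to 7.61, although GFP+ was above GFP− within each of the 8 pools.

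The receptors lower in GFP+ cells included the larger differences of the cluster. Olfr1495 of MOR266 had the largest of all 61. In GFP− cells it read 11.48, 12.05, 12.58 and 11.96 in replicates 1 to 4 after 2-octanone and 12.15, 12.40, 12.85 and 12.72 after vehicle. In GFP+ cells it read 5.77, 6.96, 8.48 and 8.39 with 2-octanone and 6.29, 7.03, 6.94 and 6.24 with vehicle. The highest GFP+ sample lay far under the lowest GFP− sample, and the sort difference was −5.26 (SE 0.32, 38.4-fold lower, limma adjusted p = 3.22e-09). Its lowest GFP+ value, 5.77, lay near the background mean of that array, 5.55, which limits how the fold can be read. Olfr1447 of MOR202 read 7.63 to 8.95 in GFP+ and 11.92 to 13.17 in GFP− cells, a difference of −4.63 (SE 0.20, 24.8-fold lower, limma adjusted p = 1.69e-10). Its neighbour Olfr1446, of the same family, differed by −4.44 (SE 0.21), but its GFP+ signal after vehicle, 5.37 ± 0.30 (SD, n = 4), was no higher than the mean of the background probe sets on those arrays. In the vehicle group it was therefore at least 21.3-fold lower in GFP+ cells, taking background as the lowest signal that can be read. That background mean was not matched to the base composition of the member's probes. This bound and those below hold only for that mean.

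Olfr1442 of MOR202 read 4.73 to 7.08 in GFP+ and 9.25 to 10.49 in GFP− cells, a difference of −3.98 (SE 0.27, limma adjusted p = 7.33e-09). Olfr1437 also differed by −3.98 and Olfr1434 by −3.54; the latter read 4.80 to 6.43 in GFP+ cells, about the background signal, and 8.85 to 9.69 in GFP− cells. Olfr1451 (−3.34) and Olfr1490 (−3.30) completed the 8 largest negative differences, all with ranges of the 2 fractions that did not overlap. For 3 other members the GFP+ group was at or under background in at least 1 exposure: Olfr1491 was at least 7.76-fold lower after vehicle, Olfr1450 at least 3.91-fold lower after 2-octanone and lower by at least 2.32 on the log2 scale after vehicle, and Olfr1499 at least 3.79-fold and 3.18-fold. In all 4 groups 6 members were at or under background: Olfr262, Olfr1441, Olfr1453, Olfr1457, Olfr1462 and Olfr1465. The 2 of these that were called, Olfr1462 (0.64, limma adjusted p = 0.0394) and Olfr1465 (0.72, 0.0194), carry no fold change that can be read. Related receptors are alike in sequence and the array's probe sequences were not used here, so signal that a close copy contributes to a probe set cannot be told apart from the gene's own.

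**Figure D2:**
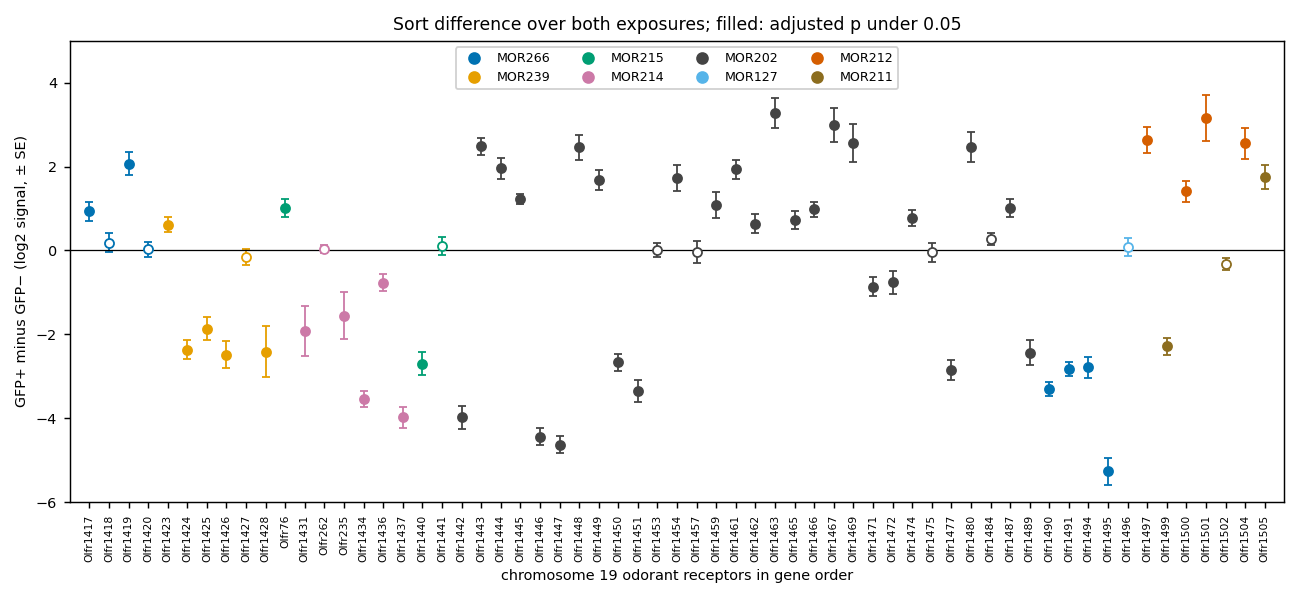
Sort difference over both exposures (y axis, GFP+ minus GFP−, log2 signal; points are means over 8 pools and bars are ± SE from the limma fit) of the 61 receptors in gene order (x axis), coloured by MOR family and filled where the adjusted p was under 0.05. The fit did not pair the fractions of a pool, so the SE is not that of the within-pool differences. The first MOR266 run (Olfr1417 to Olfr1420) lies between 0.02 and 2.07 and the second (Olfr1490 to Olfr1495) between −5.26 and −2.79, and MOR202 holds the largest positive difference beside strongly negative ones.

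Sequence families differed in how uniform they were. All 4 MOR212 receptors were higher in GFP+ cells, from Olfr1500 at 1.41 (SE 0.25) to Olfr1501 at 3.16. In MOR214, 5 of 6 were lower, from Olfr1436 at −0.77 to Olfr1437 at −3.98, and the sixth, Olfr262, was the member at background. In MOR239, 4 of 6 were lower, with Olfr1426 the lowest at −2.49 (SE 0.32); Olfr1423 was higher at 0.61 (SE 0.18, limma adjusted p = 0.0160), and Olfr1427 was not called (−0.16). MOR266 is split along the chromosome. Its first run, Olfr1417 to Olfr1420, had 2 members higher, Olfr1419 at 2.07 (SE 0.27) and Olfr1417 at 0.93, and 2 not called. Its second run, Olfr1490, Olfr1491, Olfr1494 and Olfr1495, had all 4 lower, from −2.79 to −5.26. MOR202 was mixed, with 17 of 30 higher, 9 lower and 4 not called. MOR211 had 1 of each kind: Olfr1505 at 1.75 (SE 0.29), Olfr1502 at −0.32, not called, and Olfr1499, lower by the bounds given above. In MOR215, Olfr76 was higher at 1.02 (SE 0.21), Olfr1440 was lower at −2.70 (SE 0.28, limma adjusted p = 1.12e-06) and Olfr1441 was at background.

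Along the gene order some calls came in runs, with abrupt changes between some neighbours. Run lengths were not counted in other receptor clusters, so the runs describe this cluster only. The longest run held 8 consecutive members higher in GFP+ cells, from Olfr1459 to Olfr1469, but 2 of them, Olfr1462 and Olfr1465, are members at background. The other 6 differed by 0.98 to 3.28. A run of 5 lower members extended from Olfr1489 to Olfr1495 (−2.44 to −5.26), and another of 5 from Olfr235 to Olfr1440 (−0.77 to −3.98). Olfr1442 and Olfr1443 are neighbours of one family and lay at −3.98 and 2.48. Over the 60 pairs of adjacent members the sort differences correlated with r = 0.243, and 36 pairs (60.0%) had the same sign. Over the 1063 adjacent pairs of all odorant receptors r was 0.189, with 62.0% of the same sign. For members 2 places apart r was 0.04 over 59 pairs, and 3 places apart it was 0.15 over 58 pairs. For all odorant receptors these values were 0.09 and 0.07. Adjacent pairs of the same family had the same sign in 31 of 47 cases, with a median gap of 1.88 between their differences, and adjacent pairs of different families in 5 of 13, with a median gap of 2.94. Neighbours share family and may share probe sequence, so these values are a description.

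Likeness of the upstream windows went with either outcome. Of 1653 pairs of windows, 11 were at least 70% identical, and in 9 of these both receptors had a sort difference of the same sign. The share of the same sign over all pairs was not counted. Pairs with Olfr1475, Olfr1484 or Olfr1502 hold a receptor that was not called, whose sign is not settled. The median gap between the sort differences was 1.23 in the 11 pairs and 2.36 in all pairs. Over all pairs identity and this gap correlated with r = −0.06. Olfr1446 and Olfr1447, with windows 90.5% identical, differed by −4.44 and −4.63, and Olfr1501 and Olfr1504, with 92.4%, by 3.16 and 2.55. The most similar windows, those of Olfr1471 and Olfr1474 at 95.2%, belonged to receptors on opposite sides, at −0.87 (SE 0.23, limma adjusted p = 0.00866) and 0.78 (SE 0.20, limma adjusted p = 0.00642). In GFP+ cells Olfr1471 read 9.51 to 11.53 and in GFP− cells 11.43 to 12.14, while Olfr1474 read 9.84 to 11.31 and 9.25 to 10.28. Both fractions overlapped between pools for either gene, but Olfr1471 was lower and Olfr1474 higher in GFP+ cells within all 8 pools.

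A group of members stood apart in the pools numbered replicate 1, and these genes were picked out after their values were seen. In the GFP+ cells of the replicate 1 pools Olfr1431 of MOR214 read 5.20 with the odorant and 5.47 with vehicle, at the level of background. In the other GFP+ samples it read 8.92, 8.98 and 9.58 with 2-octanone and 9.47, 9.04 and 8.79 with vehicle. In GFP− cells it read 10.09, 10.05, 10.24 and 10.05 in replicates 1 to 4 after 2-octanone and 9.93, 9.78, 10.68 and 10.06 after vehicle. The replicate 1 samples were therefore low in GFP+ cells of both exposures and unremarkable in GFP− cells. Its neighbour but one, Olfr235 of the same family and a musk receptor, showed the same arrangement. It read 7.23 with 2-octanone and 8.63 with vehicle in the replicate 1 GFP+ samples, 11.10 to 11.68 in the other 6 GFP+ samples and 11.69 to 13.03 in all 8 GFP− samples. Olfr1428 of MOR239 read 9.05 and 9.18 in the replicate 1 GFP+ samples, 11.92 to 13.78 in the other 6 and 14.19 to 14.47 in GFP− cells.

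In these 3 members both replicate 1 GFP+ values lay more than 1 (log2) under all 6 other GFP+ values, by 3.32 for Olfr1431, 2.74 for Olfr1428 and 2.47 for Olfr235. Such a gap was found for 0.0817% of all probe sets and 13 of 1080 odorant receptors (1.20%), and in GFP− cells for no member and 0.0153% of all probe sets. With any gap the count was 14 of 61 members (23.0%), against 12.3% of odorant receptors and 3.90% of all probe sets. They included Olfr1424 (gap 0.70), the musk receptor Olfr1440 (0.65) and Olfr1417 (0.59). For the pools numbered 2 and 3 no member had such a low gap above 1 (0% and 0.0409% of all probe sets), and with any gap 1 and 0 members were lowest (3.60% and 4.46%). The replicate 1 pools of both exposures also differed from the others in Eif2s3y, a Y-linked gene. It read 3.48 to 5.31 there, under the background mean of each array, and 11.05 to 12.63 elsewhere. By this gene male cells were not detected in the replicate 1 pools, so sex is confounded with the replicate number. Sex and any other property that the replicate 1 pools share cannot be told apart, and their part in the receptor values was not tested.

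The sort differences of these members depended on those pools. With all pools they were −1.93 for Olfr1431, −1.56 for Olfr235 and −2.42 for Olfr1428 (limma adjusted p = 0.0216, 0.0464 and 0.00635), and within neither exposure alone were they called. With the pool as a block Olfr1428 was called after 2-octanone (limma adjusted p = 0.0328). Without the 2 replicate 1 pools, a choice made after the values were seen, they were −1.01, −0.79 and −1.47 (limma adjusted p = 0.00145, 0.0172 and 0.00252), smaller but with less spread. Olfr1440 was −2.50 without them and −2.70 with them. In GFP+ cells it read 8.80, 9.95, 9.60 and 11.09 with 2-octanone and 8.95, 10.27, 9.69 and 10.60 with vehicle, and in GFP− cells 12.09 to 13.07 throughout, so the fractions did not overlap in any case.

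**Figure D3:**
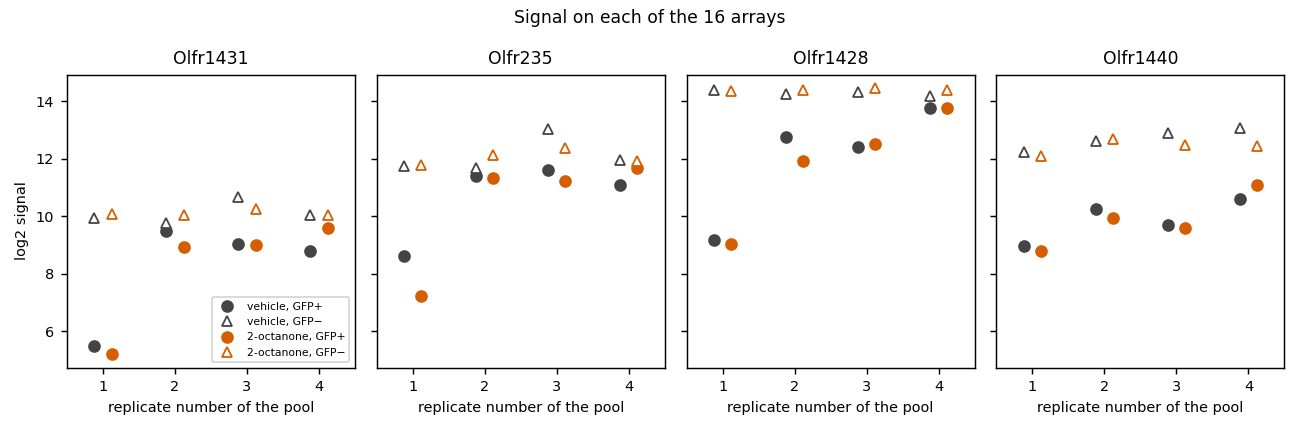
Log2 signal (y axis) of Olfr1431, Olfr235, Olfr1428 and Olfr1440 on each of the 16 arrays, by replicate number of the pool (x axis); filled circles are GFP+ and open triangles GFP− cells, grey after vehicle and orange after 2-octanone. The filled circles of replicate 1 lie lowest for both exposures in all 4 genes, while the triangles of replicate 1 are low only for Olfr1440, by 0.22 under all other GFP− samples.

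The replicate 4 pools, in which S100a5 was low, also stood apart for some members, in either direction. Both replicate 4 GFP+ values lay more than 1 under all others for Olfr1501 (gap 1.35), Olfr1469 (1.29) and Olfr1504 (1.22), against 0.148% of all probe sets and 21 of 1080 odorant receptors, and all 3 were among the receptors higher in GFP+ cells. With any gap, 13 members (21.3%) were lowest in replicate 4 of the GFP+ cells, against 14.8% of all probe sets and 24.3% of odorant receptors. On the upper side, 7 members (11.5%) had both replicate 4 GFP+ values above all others, against 5.56% of odorant receptors. This upper share was not set against all probe sets. They included Olfr1428 (gap 0.99), Olfr1426 (0.43) and Olfr1440 (0.33), which were also lowest in the replicate 1 GFP+ cells. In replicate 4 of the GFP− cells 16 members (26.2%) were lowest, against 17.0% of all probe sets and 45.4% of odorant receptors. Among the 24 lower members the median within-pool difference was −1.72 in the 2-octanone replicate 4 pool and −2.32 to −3.44 in the other 7 pools. In that pool's GFP+ cells the neutrophil genes averaged 12.45, above the other 7 GFP+ arrays. Its part in the receptor values was not tested.

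Exposure to 2-octanone changed no member's signal past the threshold. In GFP+ cells 0 of 61 members were called by limma (0% of all probe sets), in GFP− cells 0 of 61 (0.00511%), and for the change of the GFP+/GFP− ratio 0 of 61 (0%). At an unadjusted p under 0.05 the counts were 2 members in GFP+ cells, 1 in GFP− cells and 3 for the ratio, against 3.16%, 2.44% and 2.38% of all probe sets. The differences between exposures ran from −0.70 to 0.83 in GFP+ cells with a median of 0.06, from −0.51 to 0.66 in GFP− cells with a median of −0.04, and from −0.93 to 1.29 for the ratio with a median of 0.01. In GFP+ cells no member's groups were free of overlap, upward (0.930% of all probe sets) or downward (0.858%), and downward there was none in GFP− cells (0.700%) or for the ratio (1.02%). The 3 comparisons share arrays, so they are given side by side and not set against each other.

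Olfr1442, lower in GFP+ cells in both exposures, had the largest difference in GFP+ cells. It read 6.18, 6.64, 6.77 and 6.97 there after 2-octanone and 4.73, 7.08, 5.32 and 6.09 after vehicle, and the groups overlapped because of the vehicle replicate 2 sample. The difference was 0.83 (SE 0.38, unadjusted p = 0.0416), against −0.42 (SE 0.38) in GFP− cells. The ratio differed by 1.25 (SE 0.53, unadjusted p = 0.0315). The vehicle GFP+ values of Olfr1442 in replicates 1 and 3 lay under the background means of those arrays, 5.60 and 5.61. The differences of 0.83 and 1.25 therefore rest in part on signal at background. Olfr262 differed by 0.45 in GFP+ cells (SE 0.14, unadjusted p = 0.00643), with 5.22 to 5.57 after 2-octanone and 4.66 to 5.32 after vehicle, where all group means were at or under background. Olfr1447 had within-pool differences of −4.62, −4.29, −4.35 and −3.27 with 2-octanone and −4.91, −5.36, −5.49 and −4.79 with vehicle. It was the 1 member whose within-pool differences did not overlap between exposures in the upward direction (1.13% of all probe sets), and its ratio differed by 1.00 (SE 0.40, unadjusted p = 0.0225, limma adjusted p = 1.00).

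Among the other members named by the same rule, Olfr1450 differed by 0.51 in GFP+ cells, where it was at or under background in both exposures. Olfr1472 (−0.70, SE 0.38), Olfr1499 (−0.55), Olfr1465 (−0.54) and Olfr1487 (−0.37) had the smallest p on the negative side, none under 0.05 before adjustment; Olfr1499 and Olfr1465 were at or under background in GFP+ cells in both exposures, so that their differences cannot be read as changes. In GFP− cells Olfr1453 differed by 0.66 (SE 0.25, unadjusted p = 0.0172), reading 5.06 to 6.29 after 2-octanone and 4.72 to 4.84 after vehicle, again with group means at or under background. It was the 1 member without overlap in GFP− cells (1.12% of all probe sets). Olfr1495 differed by −0.51 (SE 0.45) in GFP− cells and Olfr1497 by 0.51 (SE 0.44). For the ratio, Olfr1467 had the most negative value named, −0.93 (SE 0.82), which was 0.082 without the replicate 4 pools. The largest ratio change of the cluster in size, that of Olfr1495, was 1.29 (SE 0.64, unadjusted p = 0.0622). Beside these values, the neutrophil genes averaged 7.15, 7.14, 9.67 and 12.45 in GFP+ cells of replicates 1 to 4 with 2-octanone and 7.15, 7.31, 6.71 and 8.19 with vehicle.

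**Figure D4:**
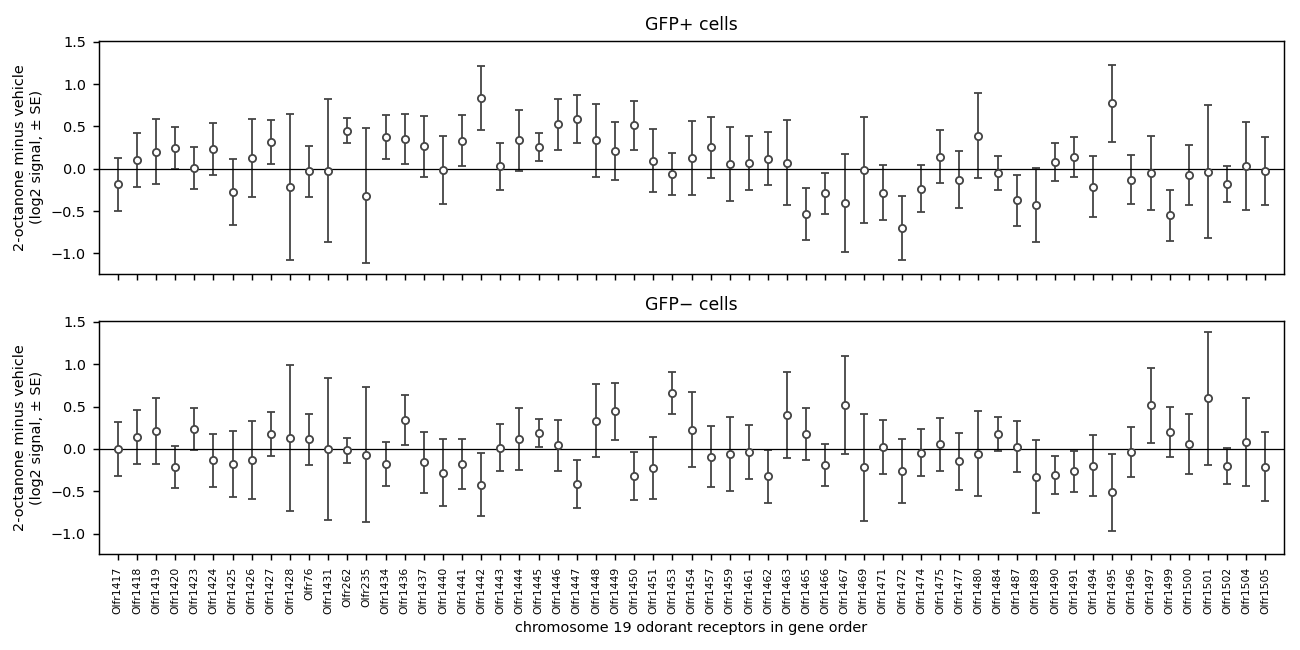
Difference between exposures (y axis, 2-octanone minus vehicle, log2 signal; points are limma estimates and bars ± SE, 4 pools per exposure) of the 61 receptors in gene order (x axis), in GFP+ cells above and GFP− cells below. The points lie between −0.70 and 0.83 in GFP+ and between −0.51 and 0.66 in GFP− cells, and none passed the adjusted threshold.

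Of 20 listed genes that act in receptor choice or in bringing receptors to the cell surface, 4 passed the threshold upward and 2 downward in the sort, and none passed it with 2-octanone in either fraction. The share called in the sort, 6 of 20, is near the 30.7% of all probe sets. The higher ones were Adcy3, the adenylyl cyclase of odorant signalling (0.37, limma adjusted p = 0.0141), Rtp2, a receptor transporting protein (0.45, 0.0291), Reep1, which also aids receptor export (0.43, 0.00216), and Ric8b, an exchange factor for the olfactory G protein (0.38, 0.00560). The lower ones were Cbx5, which encodes a heterochromatin protein (−0.34, 0.0109), and Lbr, the lamin B receptor (−1.85, 7.95e-06). Lhx2, the homeodomain factor named above, differed by −0.05 (SE 0.15) and was not called. The median over the list was 0.16, beside 0.13 for all probe sets tested.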

How the data were processed

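The authors deposited normalised signals for 16 arrays, read here as log2 values from their range of 2.13 to 18.99; Affymetrix Expression Console is named per the submitters' processing notes, while log base and algorithm are not given in the sources used here. Of 28846 probe sets, 6640 controls and 2634 without a gene were left out, and 19572 were fitted with limma 3.58.1 in R 4.3.3 on the means of 4 groups (12 residual degrees of freedom, prior 4.19), two-sided, with Benjamini-Hochberg adjustment over all of them and a threshold of 0.05. With 4 arrays a group, their number limits the precision. Unless a pool block is named, the fractions of a pool were not paired. The SE and p-values of the sort and of the ratio are therefore unpaired. The fit was tested on simulated data.

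A group counted as at background where its mean did not exceed that of 23 background probe sets; a bound sets the other fraction's mean against the mean of, per array, the higher of background and the dim signal itself. The member rule uses no measured value, but it, the gene lists and the comparisons were chosen with earlier results of these data known. Named are the 8 largest called sort differences in each direction, the 4 smallest p in each direction between exposures, and the highest and lowest of each family; others were chosen after their values were seen. Families came from MOR synonyms, as no protein sequences were used.

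Replicate numbers were checked as a pairing of the exposures. Residuals of same-numbered arrays correlated with r = 0.19, 0.17, 0.26 and 0.43 in GFP+ cells, where each exceeded those of unlike numbers, and with 0.34, −0.06, 0.35 and 0.52 in GFP− cells. The labels do not say what a number stands for.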

Additional observations from a re-analysis of the deposited data

Results flagged for a closer look

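For 35 named members the 4 arrays of each of the 4 groups were compared, and in 11 of 140 groups 1 array stood far from the other 3 by Dixon's criterion, which sets the gap against the whole range. Chance alone gives about 1 group in 20. Of these values 4 belong to Olfr1431 and Olfr235, genes named because their replicate 1 arrays stood apart; without the 3 genes named for that reason 7 of 128 groups remain, near the share that chance gives. The 11 values lie on 6 arrays.

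In replicate 1 of the GFP+ cells, Olfr1431 was low at 5.20 after 2-octanone and at 5.47 after vehicle, and Olfr235 was low at 7.23 and 8.63. In the GFP− cells of the same 2-octanone pool Olfr1501 was high at 9.83, against 7.95 to 8.18 in the other 3.

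In vehicle replicate 4, Olfr1501 was low at 9.99 in GFP+ and at 4.84 in GFP− cells, Olfr1469 at 4.78 in GFP− cells and Olfr1504 at 5.50 in GFP− cells. In 2-octanone replicate 3 the GFP− cells were high for Olfr1426 at 12.22 and for Olfr1434 at 9.54. No cause was tested for any of these.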

How the results depend on the processing

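Over both exposures 38 to 51 members were called across all settings, against 50; the lowest count came from testing only probe sets at or above the median signal, which left 44 members, 86.4% of them called. After vehicle the range was 32 to 45 and after 2-octanone 30 to 45, both lowest among those 44, and for the exposure comparisons it was 0 throughout. Leaving out 1 pool at a time gave 46 to 49, 37 to 44 and 31 to 42. Centring each array on its median moved the median sort difference of all probe sets from 0.13 to 0.41 and the share of higher calls among them from 54.4% to 86.4% (64.6% with quantile normalisation); the members' split was then 28 higher and 23 lower. With the pool as a replicate block 49 members were called in the sort over both exposures, 42 with vehicle and 41 with 2-octanone. Besides the changes for Olfr1472 and Olfr1428 given above, this block moved calls of Olfr1459, Olfr1462, Olfr1471 and Olfr1487 within 1 exposure or both; none was moved in the comparisons between exposures. Olfr262, at background, had a sort difference of −0.024 with quantile normalisation, −0.036 without vehicle replicate 4 and −0.046 without both replicate 4 pools, against 0.03; leaving out 1 pool at a time gave −0.036 to 0.090, and it was called at 0.31 with median centring. Olfr1467's ratio was 0.082 without both replicate 4 pools, against −0.93. Olfr1423 was not called without 2-octanone replicate 4 (0.51), vehicle replicate 4 (0.47) or both (0.37), and Olfr235 lost its call in 9 settings (limma adjusted p 0.0543 to 0.104). The causes were not tested. Taking the lowest of several probe sets was not run, as each member has 1. Signals near background limit Olfr1434, Olfr1442, Olfr1446, Olfr1450, Olfr1491, Olfr1499 and the 6 members at background. The lowest GFP+ values of Olfr1437 (5.51), Olfr1451 (5.63), Olfr1495 (5.77) and Olfr1490 (5.93), among others, also lay near background. The background also varied with base composition of the background probe sets, from 2.66 to 9.10.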
